A study of Mus musculus with 32 samples.

Results

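The cell cycle and DNA replication genes followed here are 40 protein-coding genes that dividing cells switch on in order: 9 for the licensing and firing of replication origins (*Mcm2* to *Mcm7*, *Cdc6*, *Cdc45* and *Gins2*), 5 for the replication fork and its nucleotide supply (*Pcna*, *Rrm1*, *Rrm2*, *Tyms* and *Uhrf1*), 3 G1/S regulators (*E2f1*, *Ccne1* and *Ccne2*), 11 mitotic cyclins, kinases and their activator (*Ccna2*, *Ccnb1*, *Ccnb2*, *Cdk1*, *Plk1*, *Aurka*, *Aurkb*, *Ttk*, *Bub1*, *Bub1b* and *Foxm1*) and 12 spindle and chromosome proteins (*Mki67*, *Top2a*, *Cdc20*, *Cdca8*, *Birc5*, *Kif11*, *Kif20a*, *Kif23*, *Tpx2*, *Nusap1*, *Cenpe* and *Cenpf*). They were taken by symbol from a named list, and all 40 were found among the 55291 genes of the deposited count table. Bulk RNA-seq was performed on whole colon tissue and colon tumors of C57BL/6 mice, either *Dnase1l3* WT or carrying a constitutive, whole-body knockout (KO) of *Dnase1l3*, which encodes a secreted nuclease that digests extracellular DNA. Untreated colon (D0) came from 4 WT and 4 KO mice. All other mice had been injected with the carcinogen azoxymethane (AOM, 8 mg/kg) and given 2.5% dextran sulfate sodium (DSS), which injures the colon, in their drinking water. Colon was taken at day 19 after 1 DSS cycle (D19) and at day 80 after 3 cycles (D80), from 4 mice of each genotype each time, and day 80 tumors came from 5 WT and 3 KO mice. The methods give the AOM/DSS mice an age of 3 months at injection, and the labels give 2 months for mice injected with AOM. The age of the untreated mice was not given in the sources used here. WT mice 541, 542 and 555 and KO mice 527, 543 and 544 gave both a D80 colon and a tumor library. A library is called below by its group and mouse number.

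A dividing cell first loads the MCM helicase onto replication origins, with *Cdc6* as loader, and then fires the origins with *Cdc45* and the GINS complex. E2F transcription factors and cyclin E drive the entry from G1 into S phase, while the mitotic genes follow in G2 and M phase under *Foxm1*, B-Myb and the DREAM complex. In the colon, division is normally restricted to the lower part of the crypts, where stem and transit-amplifying cells renew the epithelium. It increases while the mucosa regenerates after injury and in adenomas, in which Wnt signaling is active.

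Because these genes are transcribed in 2 waves, the promoters of 4 members are shown, 2 of origin licensing and 2 of mitosis. They were picked because their windows hold the letters of the motifs known for each wave. The motifs were E2F sites (TTTGGCGC, TTTCCCGC, TTTGCCGC or TTTCGCGC), the CHR element of mitotic genes (TTTGAA or TTCGAA) and the CCAAT box (CCAAT), searched on both strands. Each line gives the 250 bases before the RefSeq transcription start (GRCm38.p6), 5′ to 3′ on the gene's strand, with every match in capitals. Each run of 12 capitals is a pair of E2F sites on opposite strands that share letters.
Mcm5 (chr8:75109259-75109508, plus strand): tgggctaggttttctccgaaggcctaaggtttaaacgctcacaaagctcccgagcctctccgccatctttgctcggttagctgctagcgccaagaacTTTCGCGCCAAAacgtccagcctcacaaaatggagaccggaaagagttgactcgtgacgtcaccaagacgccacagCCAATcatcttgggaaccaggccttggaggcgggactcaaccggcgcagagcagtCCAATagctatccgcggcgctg
Mcm6 (chr1:128359706-128359955, minus strand): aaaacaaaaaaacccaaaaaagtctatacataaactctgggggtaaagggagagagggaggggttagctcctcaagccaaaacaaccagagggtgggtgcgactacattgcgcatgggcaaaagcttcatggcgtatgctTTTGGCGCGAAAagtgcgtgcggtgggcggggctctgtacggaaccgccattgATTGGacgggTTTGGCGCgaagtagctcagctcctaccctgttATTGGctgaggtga
Cdk1 (chr10:69352913-69353162, minus strand): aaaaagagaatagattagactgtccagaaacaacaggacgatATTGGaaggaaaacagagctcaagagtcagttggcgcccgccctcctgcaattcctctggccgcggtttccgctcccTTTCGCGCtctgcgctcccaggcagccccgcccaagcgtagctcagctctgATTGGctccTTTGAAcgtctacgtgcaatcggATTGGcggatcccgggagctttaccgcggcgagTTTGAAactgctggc
Top2a (chr11:99024190-99024439, minus strand): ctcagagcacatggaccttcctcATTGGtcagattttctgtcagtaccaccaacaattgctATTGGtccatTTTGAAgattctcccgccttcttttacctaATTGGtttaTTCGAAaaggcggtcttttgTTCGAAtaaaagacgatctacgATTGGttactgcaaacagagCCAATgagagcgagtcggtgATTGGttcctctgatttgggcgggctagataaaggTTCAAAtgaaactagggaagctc

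A promoter window (250 bases before to 50 after the start) was at hand for 32 of the 40 genes. E2F letters were found in 5 of 14 S phase and G1/S promoters (35.7%) and in 1 of 18 mitotic promoters (5.56%), against 2.32% of 27025 mouse promoters. All 5 were among the 7 origin licensing promoters (71.4%), with 0 of 5 fork and 0 of 2 G1/S promoters. The CHR letters were found in 14 of 18 mitotic promoters (77.8%) and 3 of 14 S phase and G1/S promoters (21.4%), against 19.4% of all promoters. These 3 were again origin licensing promoters (42.9% of the 7). CCAAT boxes were frequent in both waves, in 26 of 32 members (81.2%) against 37.9% of all promoters. These matches describe letters in a window and do not show that a factor was bound.

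The 32 libraries held 18951121 to 47623288 counts (median 34333250), and the 40 genes took 0.0529% to 0.343% of them. *Dnase1l3* was low in all groups and did not separate the genotypes at D0, where it measured 1.79 to 3.59 CPM (read counts scaled to the size of the library) in WT and 1.64 to 5.02 CPM in KO. At D19 the ranges were separate (7.29 to 8.84 CPM in WT and 0.675 to 6.79 CPM in KO), and at D80 and in tumors they overlapped. The deleted part of the gene was not given in the sources used here, so total gene counts do not check the genotype labels. The epithelial markers were present in every group, and *Epcam* ranged from 1074 to 1714 CPM over all libraries. Libraries of 3 mice stood apart in the members' values: KO D19 811, WT D80 581 and KO tumor 544. In KO D19 811, *Mki67*, the nuclear proliferation antigen, measured 2.16 CPM against 68.4 to 128 in the other 3 libraries of its group. In WT D80 581 it was 3.38 against 90.9 to 106, and in KO tumor 544 it was 38.3 against 133 and 165. *Pcna*, the sliding clamp of the replication fork, showed the opposite in these libraries, with 190.5, 164 and 226 CPM, the highest value of each group.

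In these 3 libraries members with a greater exon length tended to lie lower against their groups. Exon length is the sum over all annotated exons of a gene, with shared bases counted once, and can exceed the length of any single transcript. Spearman's rho between exon length and the difference from the other libraries of the group was -0.44 in KO D19 811, -0.54 in WT D80 581 and -0.54 in KO tumor 544 over the 40 genes, and -0.58, -0.55 and -0.39 over 15992 genes. WT tumor 542 had a similar rho over the members (-0.52) but -0.08 over the 15992 genes. These coefficients are descriptions over genes that share a library. The shares of mitochondrial mRNA were 10.4%, 14.8% and 7.93%, and those of ribosomal protein mRNA 8.74%, 7.56% and 12.4%, each the highest of its group. Counts that rest on these libraries are given below with and without them, and values of single genes in part. Shares of all genes given below belong to the fits with all libraries of the groups compared. *Mki67*, *Top2a*, *Cenpe* and *Cenpf*, with great exon lengths, were the 4 lowest members against their groups in each of the 3 libraries. *Rrm1*, second among the members by summed exon length, was at 86.6 CPM in KO D19 811 against 31.1 to 90.5 in the other libraries of its group. Its length sums all annotated exons, so this value does not show that a long transcript was spared. *Cenpf*, a kinetochore protein, was at 1.01 CPM in KO D19 811 and 0.958 CPM in WT D80 581.

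**Figure D1:**
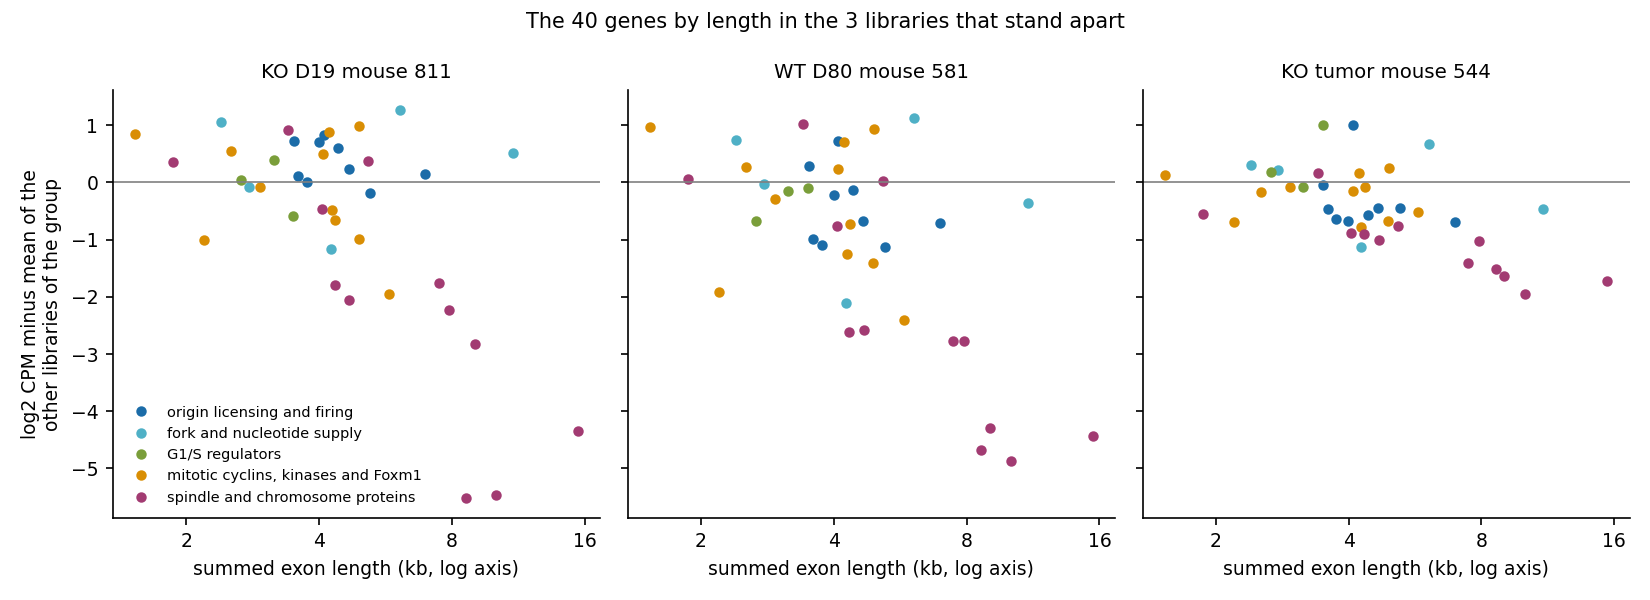
Each point is 1 of the 40 genes, colored by role; the y axis is its log2 CPM minus the mean of the other libraries of the group and the x axis its summed exon length in kb (log axis), in KO D19 811, WT D80 581 and KO tumor 544. Points lie lower on the whole toward greater summed exon length in all 3 panels, with rho of -0.44, -0.54 and -0.54.

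Expressed per kb of summed exon length over all 32 libraries, *Pcna* had the highest value, with a mean of 49.7 CPM per kb, followed by *Ccnb2* (a B-type cyclin, 21.6), *Cdc20* (an activator of the anaphase-promoting complex, 18.9), *Plk1* (a mitotic kinase, 16.04) and *Top2a* (topoisomerase II, 14.2). Members whose main transcript is shorter than their summed exons are placed too low in this order, so it does not rank transcript abundance. *Cenpf* and *Cdc6* were the lowest, with 1.45 and 1.48 CPM per kb. The mean log2 CPM of the 40 genes was most uniform in untreated KO colon (4.26 ± 0.0308, SD, n = 4) and highest in tumors (WT 5.40 ± 0.334, n = 5 and KO 5.24 ± 0.277, n = 3). In the other groups it was 4.28 ± 0.196 (WT D0), 4.56 ± 0.191 (WT D19), 4.43 ± 0.521 (KO D19), 4.24 ± 0.498 (WT D80) and 4.72 ± 0.209 (KO D80), each with n = 4. The KO D19 and WT D80 groups had the widest spread, and each holds 1 of the libraries described above. KO D19 813 was low in a different way, across short and long members (rho 0.12), with *Mcm7* at 25.9 CPM against 55.8 to 69.0 in the other 3.

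**Figure D2:**
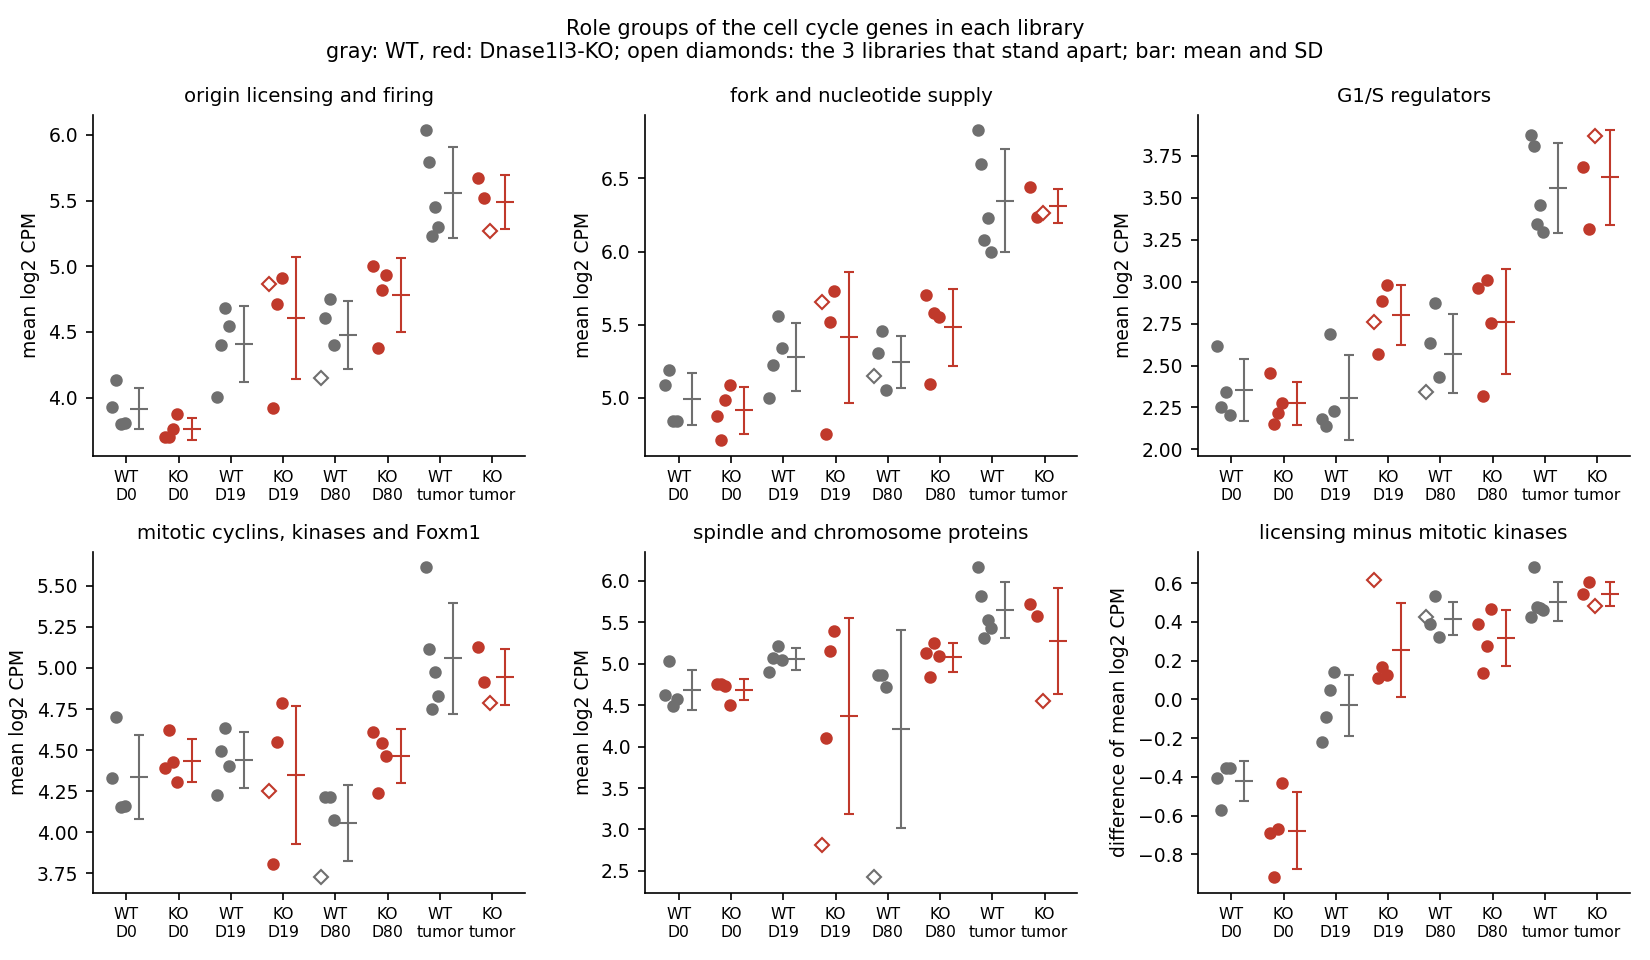
Mean log2 CPM of the genes of each role (y axis) in every library by group (x axis), and, in the last panel, the licensing mean minus the mean of the mitotic cyclins, kinases and *Foxm1*; gray points are WT, red points KO, open diamonds the 3 libraries that stood apart, and bars the mean ± SD. The group means of all 5 roles are highest in the tumors, and the spindle and chromosome proteins drop to 2.82 in KO D19 811, 2.42 in WT D80 581 and 4.55 in KO tumor 544.

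The first comparison asked how the genes changed from untreated colon to D19, after 1 cycle of DSS. Untreated colon was taken only at D0. The label prefixes (the number before the mouse number in the titles) did not overlap between D0, D19 and D80. Treatment, time and label prefix therefore cannot be told apart in the comparisons against D0. In WT mice the MCM helicase genes rose together, and 18 of the 40 genes passed the test upward and 2 downward (adjusted p under 0.05, edgeR's quasi-likelihood test with Benjamini-Hochberg adjustment over 18570 genes), where 24.2% of all genes rose and 22.6% fell. All libraries of D19 lay above all of D0 for 8 members (24.9% of all genes) and below for 0 (18.6%), and with a fold change over 2 as well 1 member rose (9.33%) and 0 fell (4.04%). Log2 fold changes are given ± SE. The median of the members was 0.30 against 0.00 over all genes. Origin licensing had 7 of its 9 genes among those that rose and a median of 0.57, and all 6 MCM genes were called. *Mcm5*, a helicase subunit (ENSMUSG00000005410, chr8:75109569-75128439 of GRCm38, GENCODE), measured 23.7, 30.6, 23.7 and 22.5 CPM in the 4 WT D0 libraries and 31.9, 41.2, 51.1 and 47.1 CPM in the 4 WT D19 libraries. Every D19 library lay above every D0 library, and the log2 fold change was 0.73 ± 0.15 (adjusted p = 0.00282). *Mcm7*, of the same helicase, measured 28.3, 40.1, 27.9 and 29.5 CPM at D0 and 42.0, 51.2, 57.5 and 55.5 CPM at D19, again without overlap, and rose by 0.67 ± 0.13 log2 units (adjusted p = 0.00277).

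*Rrm1*, the large subunit of ribonucleotide reductase, rose from 41.3 ± 4.80 to 67.2 ± 10.6 CPM (SD, n = 4) with a log2 fold change of 0.66 ± 0.12 (adjusted p = 0.00164). Of the spindle and chromosome proteins 7 of 12 rose and 1 fell, with a median of 0.38. *Top2a*, which untangles replicated DNA, measured 60.8, 81.8, 53.1 and 60.6 CPM at D0 and 111, 135, 156 and 137 CPM at D19. All D19 libraries were higher, and its log2 fold change of 1.03 ± 0.14 (adjusted p = 4.04e-04) was the highest of the 40 genes. The mitotic motors *Kif11* and *Kif20a* also rose, by 0.78 ± 0.15 log2 units (adjusted p = 0.00266) and 0.96 ± 0.20 log2 units (adjusted p = 0.00330) on the log2 scale. *Birc5* (survivin, of the chromosomal passenger complex) went the other way, from 42.3, 39.98, 34.5 and 34.5 CPM to 21.6, 27.9, 34.9 and 27.9 CPM, and fell with a log2 fold change of -0.47 ± 0.13 (adjusted p = 0.0142). The groups overlapped only through WT D19 805, which lay above the 2 lowest D0 libraries. *Foxm1*, the mitotic activator, had a log2 fold change of -0.47 ± 0.17 (adjusted p = 0.0449), and this call was lost when any 1 of 6 of the 8 libraries was left out.

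Other genes that are often read as proliferation markers did not pass at D19. *Mki67* measured 106, 117, 91.1 and 103 CPM in WT D0 and 98.0, 113, 106 and 114 CPM in WT D19, and its log2 fold change was 0.00 ± 0.09 (adjusted p = 0.988). The ranges overlapped almost fully. *Cdk1*, the mitotic kinase, measured 44.8, 49.2, 38.6 and 38.1 CPM in WT D0 and 33.6, 42.8, 45.6 and 38.5 CPM in WT D19, also with overlap, and did not pass the test (-0.13, adjusted p = 0.362). *Pcna* was at 76.9 ± 10.4 and 90.5 ± 11.6 CPM, with an adjusted p of 0.205. The count of 18 became 11 without WT D0 920, WT D0 927, WT D19 805 or WT D19 812, and the count of 2 that fell became 1 without WT D0 918 or 927 or without WT D19 685, 686 or 812.

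In KO mice 5 of the 40 genes rose at D19 and 0 fell, where 9.61% of 19191 genes rose and 3.43% fell, and all 5 were origin licensing genes. The groups were separate upward for 5 members (11.5% of all genes) and downward for 1 (7.5%), and 3 of the 5 exceeded a fold change of 2 (8.95% of all genes rose and 2.52% fell by as much). The fold changes of that role had a median of 0.87, while the mitotic kinases and the spindle proteins had medians of 0.08 and 0.03, which were -0.04 and 0.30 without KO D19 811. *Cdc6*, the helicase loader, measured 3.06, 2.28, 2.82 and 2.60 CPM in KO D0 and 6.35, 3.99, 9.03 and 10.6 CPM in KO D19, without overlap, and rose by 1.44 ± 0.31 log2 units (adjusted p = 0.0113) on the log2 scale. *Mcm4* measured 13.7, 14.0, 13.7 and 15.9 CPM in KO D0 and 31.9, 18.7, 34.5 and 40.2 CPM in KO D19, also without overlap, and rose by 1.10 ± 0.23 log2 units (adjusted p = 0.0113). The others were *Mcm5* (1.12 ± 0.28, adjusted p = 0.0262), *Mcm3* (0.87 ± 0.22, adjusted p = 0.0304) and *Mcm2* (0.84 ± 0.23, adjusted p = 0.0422), and the calls of *Mcm5* and *Mcm3* were lost on leaving out any 1 of 6 of the 8 libraries. *Mki67* measured 115, 82.7, 103 and 67.6 CPM at D0 and 2.16, 68.4, 103 and 128 CPM at D19, where the lowest value is that of library 811, and did not pass (-0.33, adjusted p = 0.891).

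Without KO D19 811, 8 members rose and 1 fell in KO, a fit whose shares of all genes are not given. *Mcm6*, *Uhrf1* and *E2f1* then joined the 5, with *E2f1* at 0.57 ± 0.17 log2 units (adjusted p = 0.0313), and *Ccnb2* fell with -0.67 ± 0.21 log2 units (adjusted p = 0.0392). The number that rose was 2 without any single KO D0 library or without KO D19 803 or 804, and 9 without KO D19 813, so it depended on each of the 8 libraries. Other cell types moved at the same time. The summed smooth muscle markers were at 7004 to 13379 CPM in WT D0 and 4076 to 6383 in WT D19, and at 5056 to 9519 in KO D0 and 3000.2 to 5553 in KO D19. The neutrophil sum was 5.15 to 19.4 CPM in WT D0 and 41.7 to 231 in WT D19, and 4.99 to 53.9 in KO D0 and 437 to 768 in KO D19. The summed epithelial markers covered 8894 to 13721 CPM in WT D0 and 8571 to 10753 CPM in WT D19, which overlap, and 9332 to 13101 CPM in KO D0 and 7272 to 9274 CPM in KO D19, where every D19 library was lower. In bulk tissue a changed share of dividing cells and a changed amount of these RNAs per dividing cell cannot be told apart. The part of tissue makeup in the fold changes was not tested.

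**Figure D3:**
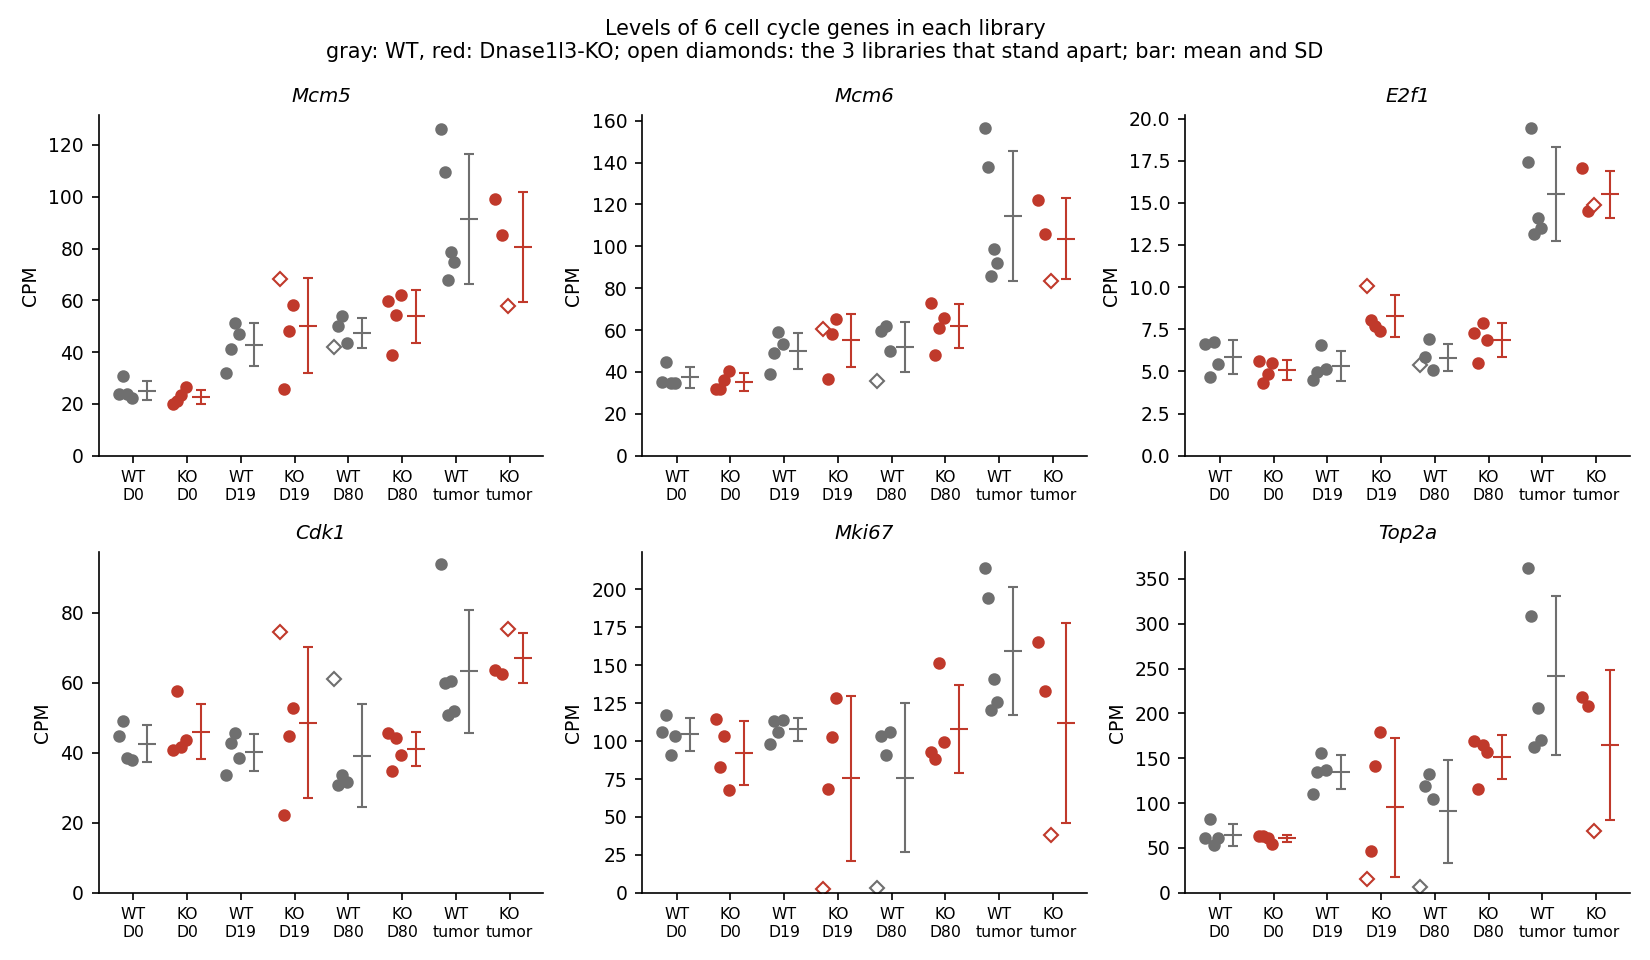
CPM (y axis, from 0) of *Mcm5*, *Mcm6*, *E2f1*, *Cdk1*, *Mki67* and *Top2a* in every library by group (x axis); gray points are WT, red points KO, open diamonds the 3 libraries that stood apart, and bars the mean ± SD. *Mcm5* lies between 19.8 and 30.6 CPM in the 8 D0 libraries and between 57.7 and 126 CPM in the 8 tumors, while *Mki67* falls to 2.16 CPM in KO D19 811 and 3.38 CPM in WT D80 581.

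At D80, after 3 cycles, most licensing genes of KO colon were higher than at D0. In KO, 19 of the 40 genes rose and 2 fell (edgeR, 19031 genes tested), where 28.4% of all genes rose and 24.8% fell, with a median of 0.38 for the members and 0.02 for all genes. The groups were separate upward for 17 members (28.9% of all genes) and downward for 2 (20.4%), and 8 members rose by a fold change over 2 (13.4%) and 0 fell by as much (7.63%). Origin licensing contributed 8 of its 9 genes and a median of 1.20. *Cdc6* measured 3.06, 2.28, 2.82 and 2.60 CPM at D0 and 9.88, 5.43, 9.28 and 9.64 CPM at D80, without overlap, and had the highest log2 fold change, 1.61 ± 0.21 (adjusted p = 1.88e-04). *Mcm2* measured 15.7, 16.4, 16.1 and 18.2 CPM in KO D0 and 48.3, 30.7, 42.0 and 49.6 CPM in KO D80, and each D80 library exceeded each D0 library (1.32 ± 0.14, adjusted p = 6.37e-05). *Mcm4* rose by 1.39 ± 0.14 log2 units (adjusted p = 3.66e-05) and *Mcm5* by 1.20 ± 0.15 log2 units (adjusted p = 1.42e-04) on the log2 scale. The one licensing gene that did not pass was *Gins2*, a subunit of the GINS complex (-0.15, adjusted p = 0.317).

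Of the 5 fork genes, 3 rose in KO at D80. *Uhrf1*, which recruits maintenance DNA methylation to replicated DNA, rose by 1.18 ± 0.21 log2 units (adjusted p = 0.00110), *Rrm1* by 0.93 ± 0.14 log2 units (adjusted p = 4.04e-04) and *Pcna* by 0.40 ± 0.11 log2 units (adjusted p = 0.0114). *Pcna* measured 74.4, 74.3, 76.1 and 91.7 CPM at D0 and 119, 89.8, 109 and 113 CPM at D80, and only D80 library 535, at 89.8 CPM, lay within the D0 range. Of the G1/S regulators only *Ccne1* (cyclin E1) passed, at 0.58 ± 0.20 log2 units (adjusted p = 0.0312). *Top2a* rose from 63.5, 63.9, 60.6 and 54.9 CPM to 169, 115, 164 and 157 CPM, without overlap (1.27 ± 0.13, adjusted p = 4.12e-05). The mitotic genes *Birc5* and *Ccnb2* fell. *Ccnb2* measured 30.8, 47.0, 36.6 and 33.8 CPM at D0 and 30.2, 22.6, 23.5 and 27.7 CPM at D80, with every D80 library below every D0 library (-0.55 ± 0.14, adjusted p = 0.00797). *Birc5* measured 36.5, 42.5, 37.6 and 36.7 CPM in KO D0 and 29.6, 21.3, 27.1 and 27.4 CPM in KO D80, also separate (-0.59 ± 0.11, adjusted p = 0.00140). *Mki67* and *Cdk1* did not pass, at 0.18 ± 0.21 log2 units (adjusted p = 0.507) and -0.21 ± 0.13 log2 units (adjusted p = 0.198).

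In WT colon at D80, *Mcm5* was the only member that passed the test, where 8.57% of 18419 genes rose and 4.32% fell. With a fold change over 2 the number was 0 (7.07% of all genes higher and 3.25% lower), and 3 members were separate upward (14% of all genes) and 3 downward (10.1%). *Mcm5* measured 23.7, 30.6, 23.7 and 22.5 CPM at D0 and 41.8, 49.9, 54.1 and 43.5 CPM at D80, without overlap, and its log2 fold change was 0.89 ± 0.18 (adjusted p = 0.0116). The call was lost without WT D0 920, and without WT D0 918 the number was 2. Without WT D80 581, 10 members rose and 7 fell, and the shares of all genes in this fit are not given. Those that rose were the 6 MCM genes, *Cdc6*, *Rrm1*, *Uhrf1* and *Top2a*, with *Cdc6* at 0.93 ± 0.17 log2 units (adjusted p = 0.00218) and *Top2a* at 0.84 ± 0.15 log2 units (adjusted p = 0.00184). The 7 that fell were *Aurkb*, *Birc5*, *Ccnb2*, *Cdc20*, *Cdk1*, *Foxm1* and *Gins2*, all but the last mitotic. *Birc5*, for example, was at -0.84 ± 0.11 log2 units (adjusted p = 3.74e-04) and *Foxm1* at -0.72 ± 0.17 log2 units (adjusted p = 0.00777). In the 4 WT D80 libraries *Birc5* measured 44.6, 22.8, 22.8 and 20.1 CPM and *Foxm1* 1.75, 9.89, 9.38 and 8.93 CPM, where the first value of each is library 581, high for *Birc5* and low for *Foxm1*.

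The balance of the licensing genes and the mitotic cyclins and kinases differed between stages within single libraries. The mean log2 CPM of the 9 licensing genes minus that of the 11 mitotic cyclins, kinases and *Foxm1* was -0.57 to -0.35 in WT D0, -0.92 to -0.43 in KO D0 and -0.22 to 0.14 in WT D19. It was 0.11 to 0.61 in KO D19, 0.32 to 0.53 in WT D80 and 0.14 to 0.47 in KO D80. In the tumors it was 0.42 to 0.68 in WT and 0.48 to 0.60 in KO. No D0 library reached the lowest D19 library, and all 16 D80 and tumor libraries were above 0. This difference was computed with results known and carries no test. The smooth muscle sum was 3696 to 4625 CPM in WT D80 and 2290.1 to 3626 CPM in KO D80, below its D0 range in both genotypes (5056 to 9519 in KO D0), and the B cell sum was 48.2 to 138 CPM in WT D80 against 1.70 to 4.87 CPM in WT D0. Their part in these differences was not tested. The D19 and D80 comparisons use the same D0 libraries, and the tumor comparisons below use the same D80 libraries.

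**Figure D4:**
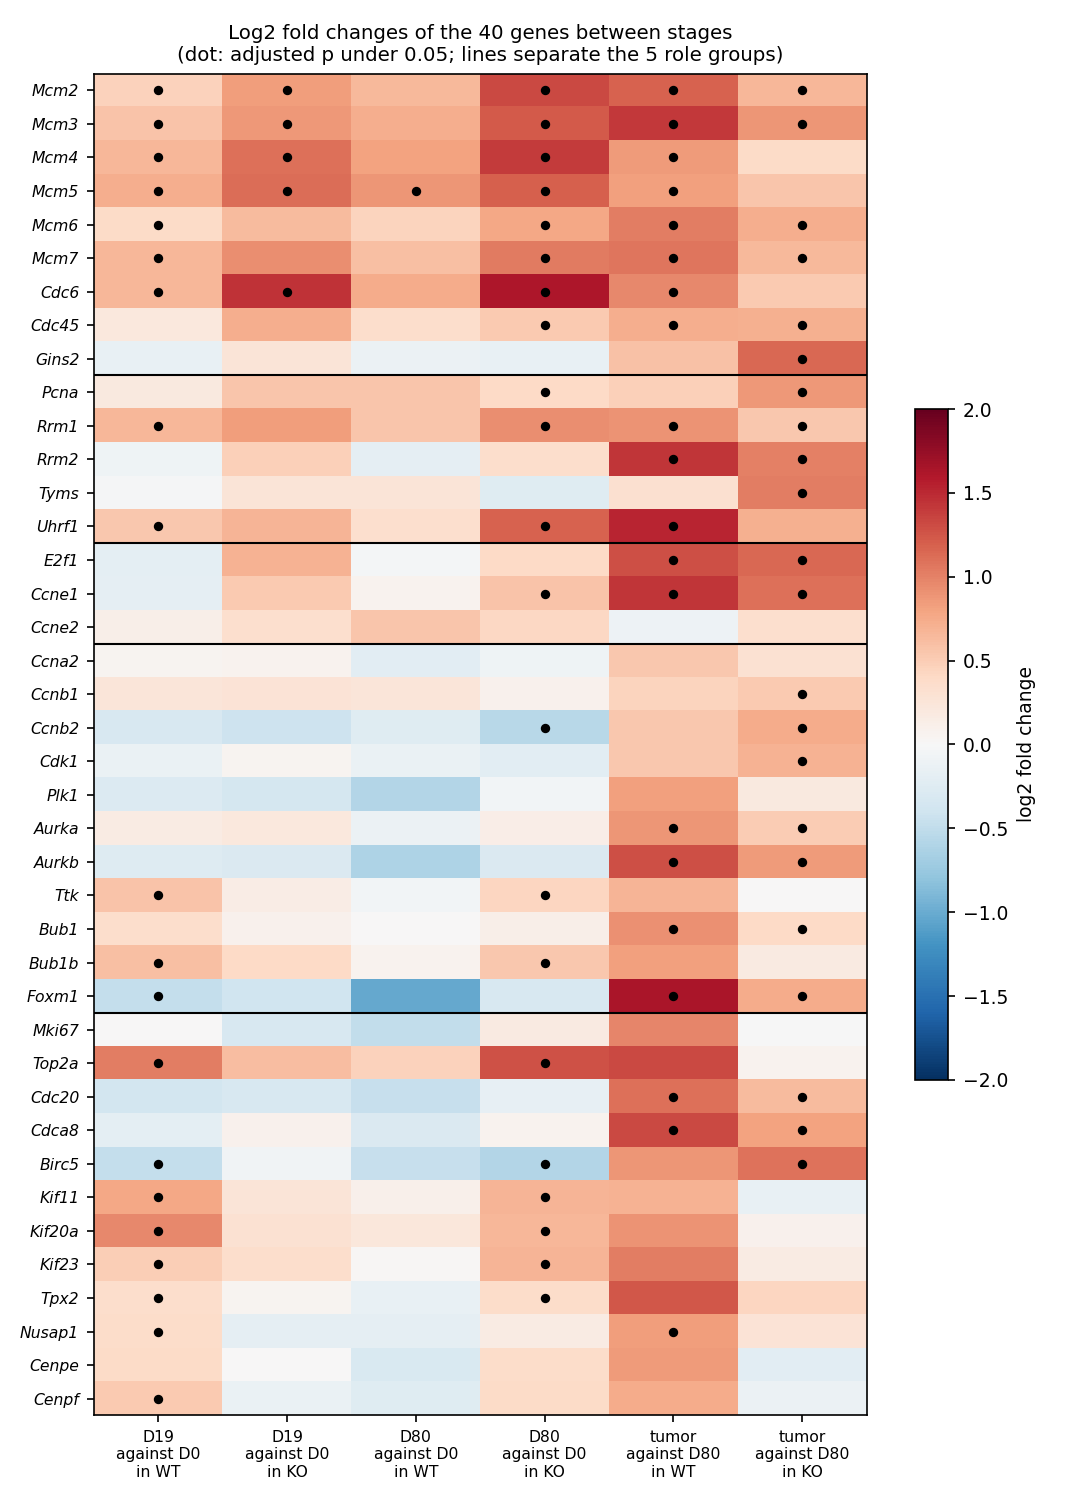
Heat map of the log2 fold changes (color scale from -2 to 2) of the 40 genes (lines, separated by role) in 6 stage comparisons (columns); a dot marks an adjusted p under 0.05 (edgeR). The 9 origin licensing genes at the top carry 7 dots for D19 in WT, 5 for D19 in KO, 1 for D80 in WT and 8 for D80 in KO, while *Birc5* and *Ccnb2* are below 0 with a dot in KO at D80.

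The tumors were then compared with D80 colon of the same genotype. D80 colon was whole colon of the stage at which tumors were taken. Whether tumors had been removed from it was not given in the sources used here. The paper reports more and larger tumors in KO mice, so any tumor tissue in D80 colon may differ by genotype. Its part in the D80 values was not tested. The members were higher in WT tumors by a median of 0.89 on the log2 scale where the median of all genes was -0.06. Of the 40 genes, 20 rose and 0 fell (edgeR, 19007 genes tested), where 12.4% of all genes rose and 17.2% fell. By point estimate 39 were above 0 (46.8% of all genes). All tumors lay above all D80 libraries for 31 members (20.8%) and below for 0 (13.4%), and 12 members rose by a fold change over 2 (8%) and 0 fell by as much (13.5%). Licensing had 8 of 9 genes among those that rose, the G1/S regulators 2 of 3, the fork genes 3 of 5, the mitotic cyclins and kinases 4 of 11 and the spindle and chromosome proteins 3 of 12. *E2f1*, the transcription factor of S phase entry, measured 5.35, 5.88, 6.93 and 5.08 CPM in WT D80 and 17.4, 19.5, 13.1, 14.1 and 13.5 CPM in the 5 WT tumors. The groups were separate, with all tumors at or above 13.1 CPM, and the log2 fold change was 1.29 ± 0.20 (adjusted p = 0.00135). *Ccne1*, the cyclin that partners *Cdk2* at this step, measured 4.0002, 6.13, 7.68 and 5.56 CPM in WT D80 and 19.3, 23.6, 14.6, 15.1 and 13.3 CPM in WT tumors, likewise separate (1.43 ± 0.25, adjusted p = 0.00230).

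*Cdca8* (borealin) and *Aurkb*, partners in the chromosomal passenger complex, were with *E2f1* the members with the smallest adjusted p. *Cdca8* measured 15.5, 15.95, 14.9 and 14.7 CPM in D80 colon and 51.5, 50.3, 34.2, 34.4 and 38.0 CPM in tumors (1.32 ± 0.19, adjusted p = 0.00104). *Aurkb* measured 9.01, 11.2, 10.3 and 11.4 CPM in WT D80 and 39.2, 26.9, 20.9, 28.3 and 24.8 CPM in WT tumors (1.29 ± 0.20, adjusted p = 0.00149). Both were separate between the groups. *Mcm6* rose from 35.7, 59.5, 62.1 and 49.8 CPM to 157, 138, 86.0, 98.9 and 92.2 CPM, again with every tumor higher (1.02 ± 0.24, adjusted p = 0.0109). *Foxm1* (1.63 ± 0.42, adjusted p = 0.0150) and *Uhrf1* (1.52 ± 0.40, adjusted p = 0.0183) had the highest fold changes with all libraries, but without WT D80 581 they were at 1.31 ± 0.19 log2 units (adjusted p = 6.52e-04) and 1.22 ± 0.23 log2 units (adjusted p = 0.00263), below *Rrm2* at 1.44 ± 0.29 log2 units (adjusted p = 0.00324) and *Cdca8* at 1.35 ± 0.17 log2 units (adjusted p = 4.06e-04). With all libraries *Rrm2*, the small subunit of ribonucleotide reductase, rose by 1.43 ± 0.27 log2 units (adjusted p = 0.00382). *Ccne2* (cyclin E2) was the only member below 0, at -0.11 ± 0.22 log2 units (adjusted p = 0.743).

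*Mki67* and *Top2a* did not pass the test in WT, with 0.97 ± 0.68 log2 units (adjusted p = 0.313) and 1.32 ± 0.65 log2 units (adjusted p = 0.158). *Mki67* measured 3.38, 104, 90.9 and 106 CPM in D80 colon and 214, 195, 121, 141 and 126 CPM in tumors, all tumors being higher. The lowest D80 value was that of library 581. Without it, 35 of the 40 genes rose, among them *Mki67* (0.57 ± 0.20, adjusted p = 0.0412) and *Top2a* (0.92 ± 0.28, adjusted p = 0.0209), with a median of 0.84. The share of all genes that rose without 581 is not given. With the mouse as a block, 30 genes rose and the median was 0.67. This fit keeps only the 3 WT mice that gave both tissues and leaves out WT D80 581 and WT tumors 534 and 579. Pairing and the loss of these libraries cannot be told apart in this count, and its share of all genes is not given.

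In KO, 22 of the 40 genes rose in tumors and 0 fell (19457 genes tested), where 21.8% of all genes rose and 24.7% fell, with a median of 0.55 against 0.01 and 36 genes above 0 (50.6% of all genes). The groups were separate upward for 22 members (26.4%) and downward for 0 (27.9%), and 6 rose by a fold change over 2 (10.3%) while 0 fell by as much (16.4%). *E2f1* measured 7.27, 5.51, 7.89 and 6.88 CPM in KO D80 and 17.1, 14.5 and 14.9 CPM in the 3 KO tumors, without overlap, and rose by 1.15 ± 0.16 log2 units (adjusted p = 0.00144). *Ccne1* was at 9.80, 5.21, 8.99 and 6.88 CPM in KO D80 and 18.4, 13.7 and 18.0 CPM in KO tumors, also separate (1.10 ± 0.24, adjusted p = 0.00825). *Birc5* measured 29.6, 21.3, 27.1 and 27.4 CPM in D80 colon and 60.8, 47.4 and 60.4 CPM in tumors, all tumors higher, and rose by 1.08 ± 0.17 log2 units (adjusted p = 0.00218). *Pcna* measured 119, 89.8, 109 and 113 CPM in KO D80 and 185, 182 and 226 CPM in KO tumors (0.87 ± 0.18, adjusted p = 0.00665), and *Tyms*, thymidylate synthase, rose by 1.03 ± 0.23 log2 units (adjusted p = 0.00890). *Tyms* measured 52.4, 45.8 and 78.3 CPM in KO tumors, the last from tumor 544. The fold change of *Gins2* was as high as that of *E2f1*, at 1.15 ± 0.29 log2 units (adjusted p = 0.0148), and its 3 tumor values were 15.2, 16.1 and 31.5 CPM, the last also from tumor 544. The fold changes of *Tyms* and *Gins2* without this library are not given here.

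*Mki67* did not differ detectably between KO tumors and KO D80 colon, with 92.5, 88.5, 151 and 99.7 CPM in D80 colon and 165, 133 and 38.3 CPM in tumors, where the lowest was again tumor 544 (0.00 ± 0.42, adjusted p = 0.997). Without KO tumor 544, 32 genes rose, the median was 0.67, and *Mki67* was at 0.42 ± 0.24 log2 units (adjusted p = 0.164) and *Top2a* at 0.45 ± 0.15 log2 units (adjusted p = 0.0403). The share of all genes that rose without 544 is not given. With the mouse as a block, which leaves out KO D80 535, 14 genes rose in KO in place of 22, with a median of 0.43. The mean log2 CPM of the 40 genes was higher in the tumor than in the D80 colon of the same animal in all 6 mice, by 1.05, 0.51 and 0.81 in WT mice 541, 542 and 555 and by 0.62, 0.46 and 0.17 in KO mice 527, 543 and 544.

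Markers of other cells moved with these differences. Summed smooth muscle markers were 3696 to 4625 CPM in WT D80 and 161 to 751 CPM in WT tumors, and 2290.1 to 3626 and 154 to 253 CPM in KO. Summed markers of colonic stem cells and Wnt targets were 103 to 553 CPM in WT D80 and 1369 to 1929 CPM in WT tumors, and 355 to 735 and 1382 to 1623 CPM in KO. The summed epithelial markers overlapped between D80 and tumors (8531 to 12473 and 10306 to 13647 CPM in WT, 9404 to 10299.7 and 6466 to 11928 CPM in KO). Squamous markers covered 142 to 1624 CPM in WT tumors and 14.3 to 41.9 CPM in WT D80. Goblet cell markers were at 22665 to 57694 CPM in WT D80 and 2108 to 5584 CPM in WT tumors, and at 13921 to 31482 and 3526 to 4055 CPM in KO, and 10 of 10 genes fell in WT and 9 of 10 in KO. Of 10 surface colonocyte markers, 8 fell in WT tumors and 9 in KO tumors. The part of these cells in the higher cell cycle levels of tumors was not tested.

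The last comparisons asked whether the genotypes differed. At D0 none of the 40 genes passed the test in either direction, and neither did any of the 18175 genes (0% called). By DESeq2 the number of members called was also 0, and at an unadjusted p under 0.05 it was 2, against 9.63% of all genes. The median KO-to-WT difference of the members was 0.01 in log2, the same as that of all genes, and 21 of 40 were above 0, against 51.3% of all genes. *Cdc6* and *Mcm2* were the 2 genes with every KO library below every WT library, where 1.65% of all genes were separate in this direction, and 0 members (1.76% of all genes) were separate upward. *Cdc6* measured 4.37, 3.63, 3.81 and 3.41 CPM in WT and 3.06, 2.28, 2.82 and 2.60 CPM in KO (-0.48 ± 0.18, adjusted p = 0.472). *Mcm2* measured 18.8, 24.0, 19.2 and 18.8 CPM in WT D0 and 15.7, 16.4, 16.1 and 18.2 CPM in KO D0 (-0.27 ± 0.11, adjusted p = 0.508).

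At D19 no member passed either (0% of 19545 genes called), 0 were called by DESeq2 and 2 had an unadjusted p under 0.05, against 11.3% of all genes. The median was 0.11 against 0.01 for all genes, with 26 of 40 genes above 0 (50.8% of all genes), and without KO D19 811 it was 0.02 with 22 above 0. All 9 licensing genes were above 0 (median 0.27, and 8 with 0.17 without 811) and the spindle and chromosome proteins had a median of -0.43, which was -0.09 without KO D19 811. *E2f1* was the only member with all KO libraries above all WT libraries, where 4.23% of all genes were separate upward, and 0 members were separate downward (4.85% of all genes). It measured 4.51, 4.95, 6.56 and 5.17 CPM in WT D19 and 10.1, 8.02, 7.68 and 7.38 CPM in KO D19 (0.68 ± 0.21, adjusted p = 0.359). Within the label prefixes that hold both genotypes, WT 805 was at 6.56 against KO 803 and 804 at 7.68 and 7.38 CPM. WT 812 was at 5.17 against KO 811 and 813 at 10.1 and 8.02 CPM. This order follows from the separation of all libraries and adds no support to it. *Ccne1*, a target of E2F factors, was at 3.96, 4.06, 6.91 and 5.05 CPM in WT and 7.43, 5.74, 7.66 and 8.58 CPM in KO, overlapping in 1 library on each side (0.58 ± 0.23, adjusted p = 0.428). Both genes were called only by limma voom with sample weights, which called 4 members, and the share of all genes it called is not given. The change from D0 to D19 differed between genotypes by 0.88 ± 0.26 log2 units (adjusted p = 0.269) for *E2f1* and 0.71 ± 0.26 log2 units (adjusted p = 0.407) for *Ccne1* in an interaction fit, in which 0 of the 40 genes passed (0% of 20149 genes higher and 0.0298% lower), 2 had an unadjusted p under 0.05 (8.15% of all genes) and 25 were above 0 (54.5%). The KO D19 libraries had higher neutrophil markers (437 to 768 against 41.7 to 231 CPM), whose part in these values was not tested.

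At D80, 34 of the 40 genes were higher in KO colon by point estimate, where 50.9% of all genes were, and the median was 0.37 against 0.01, but none passed the test (0% of 18899 genes called, 0 members by DESeq2 and 1 at an unadjusted p under 0.05, against 5.55% of all genes). A set of 7 members (*Aurkb*, *Plk1*, *Ttk*, *Nusap1*, *Kif11*, *Cenpe* and *Cenpf*, all mitotic) had every KO library above every WT library, which is 17.5% of the members against 3.34% of all genes, and 0 were separate downward (1.91%). In each of the 7 the lowest WT library was 581, which stood apart. *Plk1* was at 8.06 CPM in 581, 28.9 to 33.2 in the other WT libraries and 33.9 to 36.7 in KO. The shares of members and of all genes separate without 581 are not given. *Aurkb*, the kinase of the chromosomal passenger complex, measured 9.01, 11.2, 10.3 and 11.4 CPM in WT and 16.2, 12.1, 15.1 and 13.4 CPM in KO, with a log2 fold change of 0.40 ± 0.15 (adjusted p = 0.681). Within the label prefix that holds both genotypes, WT 541 and 542 were at 11.2 and 10.3 CPM and KO 543 and 544 at 15.1 and 13.4 CPM. This too follows from the separation of all libraries and adds no support to it. *Nusap1*, which bundles spindle microtubules, measured 12.1, 22.9, 20.0 and 19.2 CPM in WT D80 and 28.7, 23.2, 25.0 and 24.2 CPM in KO D80 (0.41 ± 0.19, adjusted p = 0.681). *Mki67* measured 3.38, 104, 90.9 and 106 CPM in WT and 92.5, 88.5, 151 and 99.7 CPM in KO and overlapped (0.51 ± 0.75, adjusted p = 0.789).

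Without WT D80 581, 39 of the 40 genes were above 0 with a median of 0.25, the median of the spindle and chromosome proteins went from 0.56 to 0.27, and *Pcna* and *Tyms* changed from below to above 0. Again 0 passed. The share of all genes above 0 in this fit is not given. The members are correlated, so their signs are not independent. Summed stem cell and Wnt target markers were 103 to 553 CPM in WT D80 and 355 to 735 CPM in KO D80, with 12 of 12 genes above 0 by point estimate and 0 called, and their part in the result was not tested. The part of any tumor tissue in the D80 colon was not tested either.

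In tumors, no member passed between genotypes (0% of 18961 genes called, 0 members by DESeq2 and 0 at an unadjusted p under 0.05, against 6.61% of all genes), and no member was separate upward (2.12% of all genes) or downward (1.13%). The nominal criterion of a p under 0.01 with a fold change over 2, with p taken here from edgeR's quasi-likelihood test, also gave 0 members, against 0.264% of all genes higher and 0.0422% lower. The median was -0.12 against -0.02, and 11 of 40 genes were above 0 (47.6% of all genes). *Top2a* measured 362, 309, 163, 206 and 170.4 CPM in WT tumors and 218, 208 and 68.4 CPM in KO tumors (-0.54 ± 0.38, adjusted p = 0.711), and *E2f1* 17.4, 19.5, 13.1, 14.1 and 13.5 CPM in WT tumors and 17.1, 14.5 and 14.9 CPM in KO tumors, overlapping in both cases. Without KO tumor 544 the median was -0.04. The rise from D80 to tumor was smaller in KO by point estimate for 32 of the 40 genes, with a median interaction of -0.45 against -0.04 for all genes, and 0 members passed (0% of 20391 genes called, 0 members at an unadjusted p under 0.05, against 11.7%). Above 0 were 8 members, against 47.7% of all genes. *Cdca8* had the smallest p of these, at -0.51 ± 0.28 log2 units (adjusted p = 0.475). Without WT D80 581 and KO tumor 544 the median was -0.27 and all 40 were below 0. With the mouse as a block, which keeps only mice with both tissues, it was -0.29, again with 0 called. The median and signs of all genes in these fits are not given. Tumor tissue in the D80 colon would enter the interaction, and its part was not tested. The members are correlated, so their signs are not independent. At 3 to 5 libraries a group these comparisons did not detect a difference between genotypes, which does not show that the genotypes were alike.

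**Figure D5:**
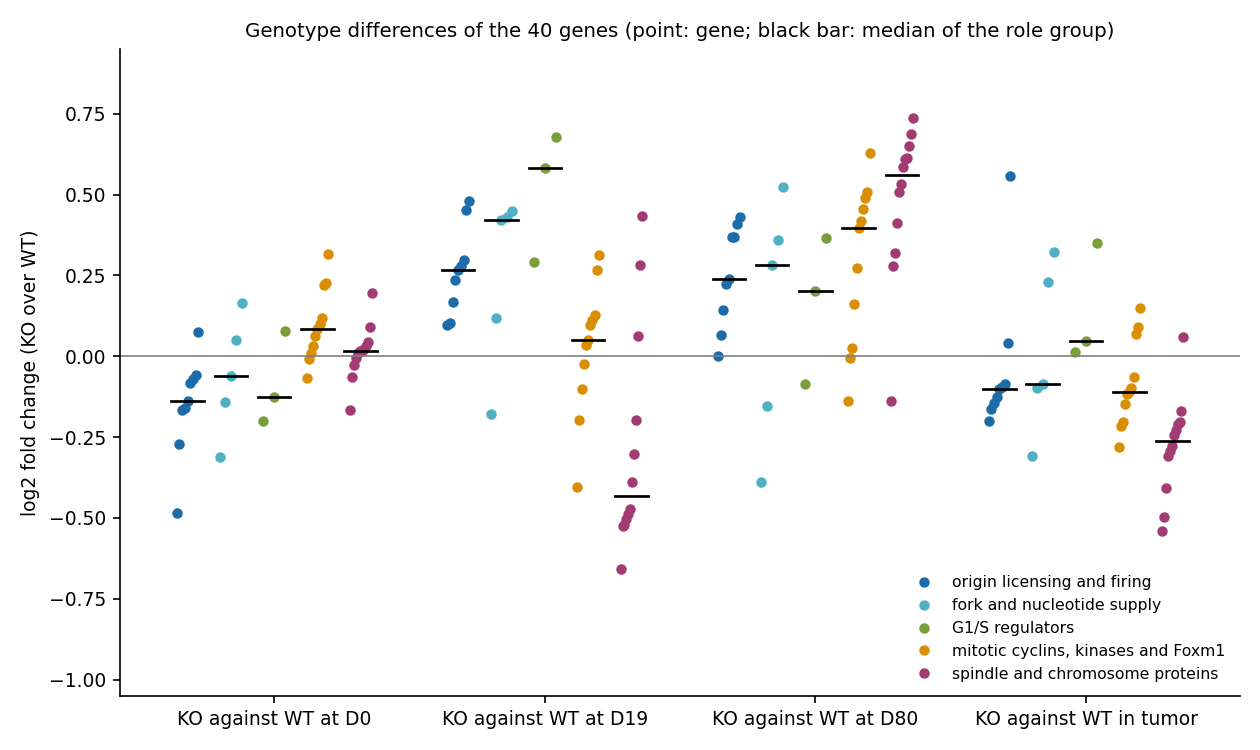
Log2 fold change of KO against WT (y axis) of the 40 genes (points, colored by role) at D0, D19, D80 and in tumors (x axis); black bars are role medians, and no gene passed the test (edgeR, adjusted p under 0.05). At D80 34 of 40 points lie above 0, in tumors 11 of 40, and the spindle and chromosome proteins have medians of -0.43 at D19 and 0.56 at D80, which are -0.09 without KO D19 811 and 0.27 without WT D80 581.

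Further genes of the cycle were grouped into 6 lists of 112 genes. In WT tumors against D80, the 38 other DNA replication genes and the 36 other mitosis genes each had 13 that rose and 0 that fell, where 12.4% of all genes rose and 17.2% fell. They were led by *Chaf1b*, a chromatin assembly subunit (1.63 ± 0.27, adjusted p = 0.00179), and *Racgap1*, a regulator of cytokinesis (1.14 ± 0.21, adjusted p = 0.00313). In KO tumors 21 and 12 rose and 0 fell (21.8% and 24.7% of all genes), with *Rfc2*, of the clamp loader (0.90 ± 0.13, adjusted p = 0.00136), and *Pbk*, a mitotic kinase (1.42 ± 0.24, adjusted p = 0.00298), first. *Mybl2*, which encodes B-Myb, rose in both genotypes, by 2.17 ± 0.47 log2 units (adjusted p = 0.00742) in WT and 1.12 ± 0.28 log2 units (adjusted p = 0.0138) in KO. *Cdk4*, the kinase of the D cyclins, rose by 0.99 ± 0.27 log2 units (adjusted p = 0.0218) in WT tumors and 1.42 ± 0.23 log2 units (adjusted p = 0.00230) in KO tumors.

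At D19 and D80 genes of these lists went in both directions. At D19 in WT, 12 replication genes rose and 6 fell, and 13 mitosis genes rose and 7 fell, where 24.2% of all genes rose and 22.6% fell. *Pola1*, the catalytic subunit of the polymerase that primes DNA synthesis, rose by 1.10 ± 0.16 log2 units (adjusted p = 6.25e-04), while *Gmnn* (geminin, an inhibitor of licensing) fell with -0.67 ± 0.10 log2 units (adjusted p = 5.74e-04) and *Cenpa*, the centromeric histone, with -0.69 ± 0.11 log2 units (adjusted p = 7.41e-04). At D80 in KO, 18 replication genes rose and 5 fell, and 12 mitosis genes rose and 10 fell (28.4% and 24.8% of all genes). *Ccnd1* and *Ccnd2*, the D cyclins, rose there by 1.34 ± 0.17 log2 units (adjusted p = 1.46e-04) and 1.05 ± 0.17 log2 units (adjusted p = 5.58e-04). Against D0, at D19 in KO 2 replication genes and 1 of the D cyclin list rose (9.61% of all genes), and at D80 in WT no gene of the replication, mitosis, E2F or D cyclin lists rose (8.57%).

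Of the 7 CDK inhibitors, the brakes of the cycle, 2 rose and 1 fell in tumors of each genotype, against shares of 12.4% and 17.2% of the genes tested in WT and 21.8% and 24.7% in KO. *Cdkn1b* (p27) fell in tumors of both genotypes, with -0.74 ± 0.20 log2 units (adjusted p = 0.0184) in WT and -0.72 ± 0.16 log2 units (adjusted p = 0.00788) in KO. *Cdkn2a*, which encodes p16 and p19Arf, was at 0 to 0.0292 CPM in the 8 D0 libraries, 1.01 to 4.12 CPM in WT D80, 3.92 to 6.59 CPM in KO D80, 7.37 to 14.7 CPM in WT tumors and 11.6 to 21.7 CPM in KO tumors. It rose from D80 to tumor by 1.99 ± 0.45 log2 units (adjusted p = 0.00910) in WT and 1.42 ± 0.31 log2 units (adjusted p = 0.00785) in KO, and no fold is given against D0, where it was near 0. *Cdkn2b* (p15) fell in KO at D80 with -1.07 ± 0.11 log2 units (adjusted p = 4.84e-05). Of 12 p53 targets, 3 rose and 1 fell in WT tumors and 2 rose in KO tumors, counts to be read against the same shares, with *Phlda3* at 1.40 ± 0.22 log2 units (adjusted p = 0.00143) and *Ccng1* at -0.93 ± 0.18 log2 units (adjusted p = 0.00443) in WT. In the 4 comparisons between genotypes, 0 genes of the 6 lists were called.

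Across the 32 libraries the S phase and G1/S members followed each other more closely than the mitotic members did, but hardly so once group means were removed. The median Pearson r of log2 CPM was 0.84 over 136 pairs of S phase and G1/S genes, 0.69 over 253 pairs of mitotic genes and 0.58 over 391 pairs between them. Without the 3 libraries that stood apart these were 0.90, 0.80 and 0.75, and with group means removed they were 0.83, 0.80 and 0.70. Over all 32 libraries with group means removed they were 0.59, 0.58 and 0.45. The 10 of 16303 genes whose log2 CPM followed the members' mean most closely over the 32 libraries had r of 0.96 to 0.97. They included *Dbf4* (0.97), the activator of the Cdc7 kinase at origins, *Lmnb1* (0.97), lamin B1, *Ncaph* (0.96), a condensin subunit, and *Exo1* (0.96), a DNA repair exonuclease, beside *Nsun2*, *Nop56*, *Hnrnpm*, *Nup133* and the predicted genes Gm11847 and Gm5641. These r values describe genes that share libraries, depth and group differences, and carry no test.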

How the data were processed

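RNA-seq of 32 colon and tumor libraries in 8 groups was analysed. Total RNA was isolated with RNeasy and libraries were made with the TruSeq RNA kit and sequenced as single-end reads. The authors checked reads with FastQC 0.11.5 per the labels, mapped them to mm10 with STAR and deposited raw read counts per gene from Subread, whose strand setting was not given in the sources used here, so reads of overlapping antisense genes cannot be told apart. From these counts, edgeR 4.0.16 (R 4.3.3) was run with filterByExpr, TMM factors and the quasi-likelihood test, one fit per comparison and Benjamini-Hochberg adjustment over all genes tested. A gene was called at an adjusted p under 0.05. The SE is the log2 fold change divided by the square root of F. CPM use TMM sizes over all 32 libraries, and log2 CPM a prior count of 1. Alternatives were DESeq2 1.42.0, limma 3.58.1 voom with sample weights, RLE factors, other filters, 1 fit of all libraries, a fold change over 2, blocks and leaving out each library. Steps were tested on simulated data. Positions are GENCODE (GRCm38) and promoters RefSeq (GRCm38.p6).

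The members, lists and motifs were chosen with earlier results of these data known. Values by library are given, in some comparisons, for *Mki67*, for the 2 members of each role with the highest mean CPM and for members leading a comparison. Of these, *Rrm1* and *Ccna2* are given by library only where a value stood out. The other genes named in each comparison are up to 4 with the smallest p in each direction and those with the highest and lowest fold change. *Nusap1* at D80, *Mcm2*, *Mcm4*, *Cdc6* and *Foxm1* were added after their values were seen. Same-numbered mice in D80 colon and tumor are the same animals per the titles, and the correlation of their deviations from the group means was 0.057, 0.10 and 0.25 in WT and 0.14, 0.071 and 0.15 in KO. Each library was taken as 1 mouse, as its title gives.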

Additional observations from a re-analysis of the deposited data

Results flagged for a closer look

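Of 112 sets of 4 or 5 libraries examined for a single distant value (10 genes and 6 scores in each group of that size), 14 held one, where chance gives about 1 in 20 for a single set. The sets share libraries and correlated genes, so this count cannot show an excess over chance. Library WT D80 581 held 3 of them, with *Mki67* at 3.38 CPM (other libraries 90.9 to 106), *Cdk1* at 61.1 CPM (30.7 to 33.5) and a mean log2 CPM of the spindle and chromosome proteins of 2.42. In WT D0 918, *Mcm6* was at 44.9, *Mcm7* at 40.1 and *Ccna2* at 64.2 CPM, each the highest of its group. WT tumor 534 was highest for *Ccna2* (97.2 CPM) and *Cdk1* (93.9 CPM). In KO D0, *Pcna* was high in library 872 (91.7 CPM), *Rrm1* low in 852 (36.0 CPM), *Ccna2* high in 853 (60.3 CPM) and the spindle and chromosome score low in 872 (4.50). *Ccne1* was low in WT D0 920 (4.93 CPM), and the G1/S score was high in WT D19 805 (2.69). No member passed edgeR's interaction test of genotype with the change from D0 to D19 or from D80 to tumor. With sample weights, voom called 2 in the former, where its share of all genes is not given. Groups of 3, such as the KO tumors, were not examined.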

How the results depend on the processing

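Of 600 counts, medians and role medians recomputed under the alternatives, 549 kept their direction and size, and of 782 fold changes of single genes 738 did. Except for the fold change over 2, shares of all genes called under the alternatives are not given, so the counts below describe the members alone. Between genotypes the number of members called was 0 in all 4 comparisons under every alternative except voom with sample weights, which called 4 higher at D19 and 2 in the D19 interaction, among them *E2f1* (0.51 and 0.77) and *Ccne1* (0.71 and 0.79). With all libraries in 1 fit, the members that rose were 4 at D19 in WT (0 fell), 10 at D19 in KO, 4 at D80 in WT (2 fell), 11 at D80 in KO (0 fell) and 33 in WT tumors. With voom they were 22 at D19 in KO (1 fell), 18 at D80 in WT (7 fell) and 34 in WT tumors. DESeq2 gave 6 higher and 1 lower at D80 in WT. A fold change over 2 left 1 higher and 0 lower at D19 in WT, 3 at D19 in KO, 0 at D80 in WT, 8 higher and 0 lower at D80 in KO, 12 in WT tumors and 6 in KO tumors. With no filter or a stricter one, 1 member fell at D19 in WT. With the mouse as a replicate block, which keeps only mice with both tissues, 14 rose in KO tumors. The block changed no other count of calls by more than 1.5 times. Leaving out single libraries gave 11 to 19 higher and 1 to 3 lower at D19 in WT, 2 to 9 and 0 to 1 at D19 in KO, 0 to 10 and 0 to 7 at D80 in WT, 17 to 22 and 2 to 3 at D80 in KO, 14 to 35 higher in WT tumors and 16 to 32 in KO tumors.

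Signs that turned were all of genes that had not passed: *Ttk* at D19 between genotypes (0.056 with voom), *Tyms* at D80 (0.10 with voom, 0.10 with the prefix of the labels as the block, and -0.54 to 0.055 leaving out single libraries, the highest without WT D80 581), *Pcna* at D80 (0.16 and 0.11, and -0.28 to 0.13, the highest again without 581), *Tyms* in tumors (-0.022 without KO tumor 544), and in the tumor interaction *Tyms* (-0.070) and *Gins2* (-0.22) without WT D80 581 and KO tumor 544 and *Gins2* with voom (-0.12). The cause was not tested. With 3 to 5 libraries a group, spread within groups limits what these comparisons detect. The WT D80 and KO D19 groups are the least precise, and each holds a library with low levels of genes of great exon length.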
